A study of Mus musculus with 2 samples.

Results

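The genes described here make cholesterol and isoprenoids or move and store cholesterol. The 30 genes were listed by name and function, not by a threshold on measured values, and were matched by their GENCODE M21 identifier in the gene tables of both libraries, out of 55536 annotated genes. The RNA came from regulatory T cells of 1 adult male mouse aged 4 months, of a strain that joins a Foxp3 allele expressing the tamoxifen-dependent recombinase CreERT2 with a YFP reporter at Rosa26. The labels trace the cells to a haematopoietic cell of the bone marrow and give no sort gate, no tamoxifen dose and no second genotype or treatment. Polyadenylated RNA was sheared by sonication and made into 2 technical libraries, called library 1 and library 2, so there was 1 group, no comparison of conditions and no measure of the spread between animals. Each SD below is over these 2 libraries and covers technical variation only.

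Library 1 held 15821875 estimated counts on annotated genes and library 2 held 16153671. The 30 genes took 36754 of these counts in library 1, or 0.232% (95% exact Clopper-Pearson interval 0.230 to 0.235), and 36948 in library 2, or 0.229% (0.226 to 0.231). These intervals cover counting error only, since reads from amplified libraries are not independent molecules. A count of 0 allowed up to 3 counts, which is 0.190 CPM in library 1 and 0.186 in library 2, CPM being the count scaled to the library's total. The defining regulatory T cell markers were present: all 6 of the markers examined were expressed, and Foxp3, the lineage transcription factor, had 43.2 TPM in library 1 and 36.2 in library 2. TPM, the deposited estimate of transcript abundance, is a level per transcript length, so it can be compared between genes. In bulk RNA, fewer cells of a type and less RNA per cell cannot be told apart.

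As background, the mevalonate pathway condenses acetyl-CoA units into mevalonate and then into the activated isoprene unit, which prenyl transferases join into farnesyl and geranylgeranyl diphosphate. These lipids are attached to small GTPases and used for ubiquinone and dolichol, or 2 farnesyl units are joined into squalene, which is cyclised and trimmed into cholesterol. The endoplasmic reticulum senses sterol: when it is low, SCAP carries the SREBP factors to the Golgi, where proteases free the part that enters the nucleus and switches on the pathway, and when it is high, INSIG proteins hold SCAP back. Oxysterols activate the LXR receptors, which switch on the sterol exporters ABCA1 and ABCG1. In regulatory T cells this pathway is known to run downstream of mTORC1 and to be needed for their suppressive function, in good part through geranylgeranylation.

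All 30 genes were expressed, that is, they reached 1 TPM in each library. Over the whole annotation 24.3% of genes passed that limit, and 46.5% of protein-coding genes did. A limit of 5 TPM in each library was passed by 27 of the 30, against 37% of protein-coding genes. The median of the 30 was 26.1 TPM, beside 18.5 TPM for the 10251 expressed protein-coding genes, and 18 of the 30 lay above that value. Levels ran from 4.34 ± 1.33 TPM (SD, n = 2 libraries) for Abca1 to 169 ± 2.55 TPM for Npc2. Ordered by mean level, 19 of the 29 neighbouring pairs had library values that overlapped. From the top, Npc2, Abcg1, Ebp, Ggps1 and Sc5d each stood clear of the next gene down, which after Sc5d was Fdps, and Soat1 had the same mean as Fdps, 47.0 TPM. From Fdft1 down to Srebf2 every pair of neighbours overlapped.

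**Figure D1:**
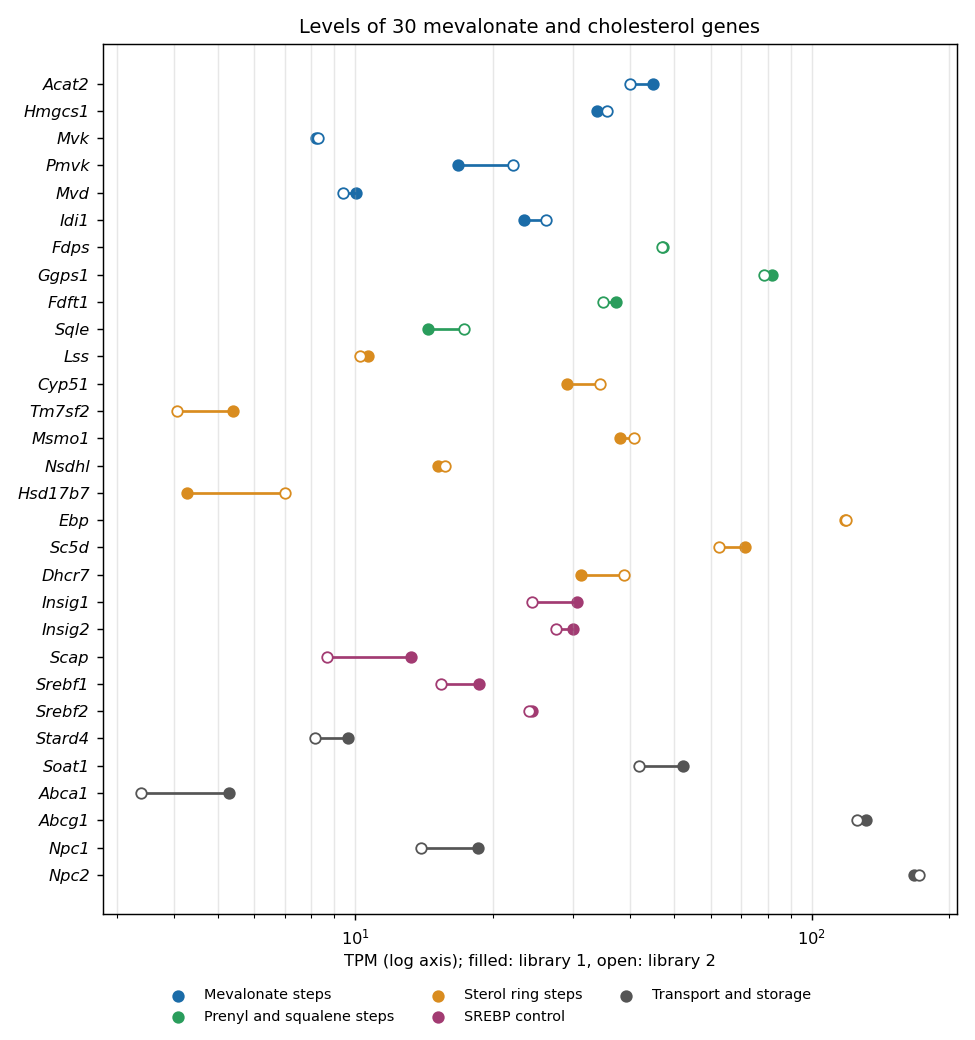
Level of each of the 30 genes in TPM on a log axis, grouped by role; filled points are library 1, open points library 2, and the line joins the pair. Npc2, Abcg1 and Ebp lie above 100 TPM in both libraries, and Abca1, Tm7sf2 and Hsd17b7 lie at or below 7.00 TPM in both.

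RefSeq promoter windows of 300 bases (250 before the start site and 50 after it, build GRCm38.p6) were held for 24 of the 30 genes, 32 windows in all; Fdps, Fdft1, Sqle, Stard4, Abcg1 and Npc1 had none. SREBP is known to work beside NF-Y, which reads CCAAT, and Sp1, which reads GGGCGG. On either strand, CCAAT was in a window of 21 of the 24 genes (87.5%), beside 43.6% of 8134 expressed protein-coding genes and 41.1% of all 27025 genes with a window. GGGCGG was in a window of 22 of the 24 (91.7%), beside 69.5% of expressed protein-coding genes and 38.2% of all. Counted by window, since a gene with several starts has more chances of a match, CCAAT was in 68.8% of the 32 windows and in 37.4% of all 32851. Acat2, Scap and Abca1 had no CCAAT in any window, and Pmvk and Ggps1 had no GGGCGG. The SREBP element with 1 free base, TCACNCCAC, was in 1 of the 24 genes (4.17%), beside 1.40% of expressed protein-coding genes. The exact SREBP element was in 0 of the 24 and in 0.0615% of expressed protein-coding genes. A match is a string of letters in a window and no measure of binding. Short motifs rich in G and C also follow base composition, whose part in these shares was not tested.

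**Figure D2:**
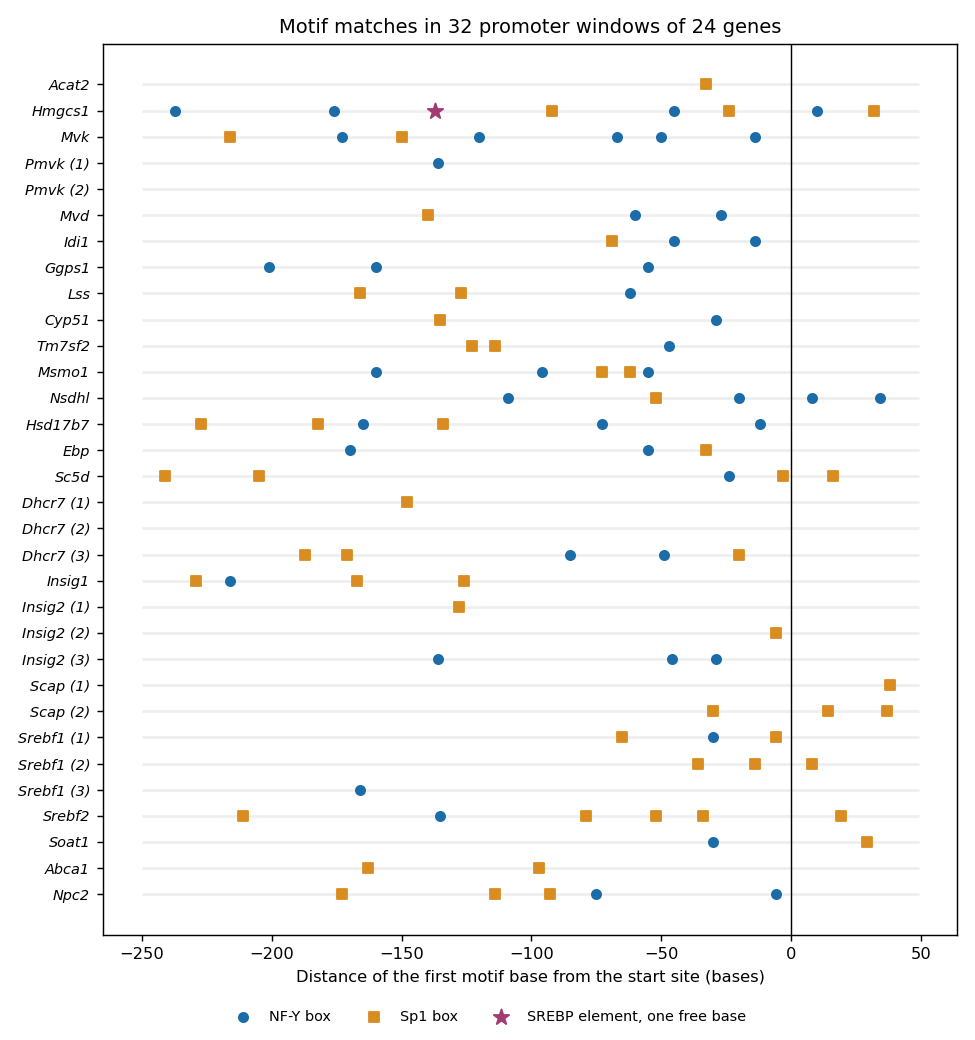
Positions of motif matches, on either strand, in the 32 promoter windows of 24 genes; the horizontal axis is the distance in bases from the start site (vertical line), and numbered names are alternative starts of 1 gene. CCAAT matches (circles) lie mostly upstream of the start, and the only match to the SREBP element with 1 free base (star) is in Hmgcs1, 137 bases upstream.

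The mevalonate steps had a median of 22.1 TPM over 6 genes, beside 18.5 TPM for expressed protein-coding genes. Acat2, the cytosolic thiolase that makes acetoacetyl-CoA, had 44.9 TPM in library 1 and 39.9 in library 2 and was the highest of them by TPM. Hmgcs1, which adds the next acetyl unit to give HMG-CoA, had 33.8 and 35.5 TPM. The kinases and decarboxylase that follow were lower: Mvk, mevalonate kinase, had 8.20 and 8.29 TPM, Pmvk, phosphomevalonate kinase, 16.8 and 22.2 TPM, and Mvd, the decarboxylase, 10.1 and 9.40 TPM. Idi1, which isomerises the product into the form that starts chain growth, had 23.4 and 26.2 TPM. By TPM both libraries placed Mvk and Mvd below the other 4 with no overlap. That order did not hold from the smaller count tables, where, on the TPM scale, Acat2 had 26.3, below Hmgcs1 at 66.2, Pmvk at 62.9 and Mvd at 33.999, and Idi1 was lowest at 0.949.

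The promoters of Hmgcs1 and Mvk are shown for their motif content. Hmgcs1 holds the single SREBP-element match among the 24 genes with a window. Mvk has 5 CCAAT matches and no SREBP-element match. Capitals mark the NF-Y, Sp1 and SREBP letters named above, or their reverse complements. Both sequences run 5′ to 3′ on the plus strand of GRCm38.p6 and end at the base before the start site, Hmgcs1 at chr13:119690161-119690350 and Mvk at chr5:114444089-114444268.
Hmgcs1: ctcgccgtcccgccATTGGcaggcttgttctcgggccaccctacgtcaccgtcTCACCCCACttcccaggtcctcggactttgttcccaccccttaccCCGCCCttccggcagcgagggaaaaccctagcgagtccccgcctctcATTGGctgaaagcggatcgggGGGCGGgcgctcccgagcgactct
Mvk: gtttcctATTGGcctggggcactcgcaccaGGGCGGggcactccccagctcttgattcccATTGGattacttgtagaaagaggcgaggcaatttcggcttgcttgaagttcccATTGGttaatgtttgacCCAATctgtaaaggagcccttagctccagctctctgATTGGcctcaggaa

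At the branch point, the geranylgeranyl enzyme stood above the squalene enzymes. Fdps, which makes farnesyl diphosphate, had 47.2 and 46.9 TPM. Ggps1, which extends it to geranylgeranyl diphosphate, had 81.9 and 78.4 TPM. Fdft1, squalene synthase, had 37.2 and 34.9 TPM, and Sqle, the squalene epoxidase that is a known control point of sterol synthesis, 14.4 and 17.3 TPM. Ggps1 was 2.20 times Fdft1 in library 1 and 2.25 times in library 2 by TPM. The size of that ratio depended on the scale: per length of the longest coding transcript it was 1.94 and 1.97, and in the smaller count tables it was 1.20 and 1.25. Against Fdps the order itself turned: Ggps1 was 1.74 and 1.67 times Fdps by TPM, but 0.910 and 0.865 times per longest coding transcript. Ggps1 (chromosome 13, 14050659 to 14063488, minus strand, mm10) owed part of its TPM to short models: the full transcript Ggps1-201 of 4244 bases held 73.7% of the gene's counts and 34.7% of its TPM, while Ggps1-207 of 762 bases held 29.2% of TPM. Fdft1 shares 774 exon bases with Ctsb on the opposite strand, a cathepsin gene at 386 and 372 TPM. Ggps1 likewise shares 257 exon bases with Arid4b on the opposite strand, at 57.5 and 56.8 TPM. The deposited counting gives no strand setting in the sources used here, so reads from those stretches cannot be assigned with certainty.

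The 9 genes that turn squalene epoxide into cholesterol covered the widest range of any enzyme group, from 4.74 ± 0.940 TPM to 118 ± 0.552 TPM, with a median of 31.7 TPM. Ebp, the sterol isomerase, had 118 TPM in library 1 and 119 in library 2, and Sc5d, the desaturase acting next, had 71.4 and 62.7 TPM. Dhcr7, which reduces a double bond of the ring and whose loss makes cells build up 7-dehydrocholesterol, had 31.2 and 38.7 TPM. Ebp and Sc5d thus stood above the other 7 in both libraries by TPM, while per longest coding transcript Msmo1, at 65.1, stood above Sc5d, at 52.0. Among the steps that remove the ring's methyl groups, Cyp51, the lanosterol demethylase, had 29.1 and 34.3 TPM, and Msmo1, the methyl sterol oxidase, 37.98 and 40.7 TPM. Lss, which closes the rings, had 10.6 and 10.3 TPM, and Nsdhl, which acts after Msmo1, 15.2 and 15.7 TPM. Hsd17b7, the ketoreductase that follows Nsdhl, had 4.29 and 7.00 TPM. Tm7sf2, a sterol reductase whose activity the nuclear membrane protein LBR is known to share, had 5.40 and 4.07 TPM. Between libraries the counts of Tm7sf2 (56 and 66) and of Cyp51 (1181 and 1153) moved against their TPM. For 4 of the 30 genes the TPM ratio and the count ratio had opposite signs, so paired TPM values alone do not give a direction. Ebp was 27.5 times Hsd17b7 in library 1 and 17.0 times in library 2 by TPM, 19.996 and 14.7 times per longest coding transcript, and 54.0 and 28.97 times from the smaller count tables. RNA levels within the 9 ring genes thus did not sit at 1 common level.

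Ebp (chromosome X, 8185329 to 8193512, minus strand, mm10) ranked 1 of 30 in the smaller count tables and 3 of 30 by TPM, and only 34.1% of its counts lay on the full coding transcript Ebp-201. A retained-intron model of 1034 bases, Ebp-202, held 39.6% of its counts, and Ebp-203, a coding model of 526 bases, held 46.9% of its TPM. Its promoter is shown because it is the highest ring enzyme and carries CCAAT 55 bases and GGGCGG 33 bases upstream of the start; capitals mark these motifs on either strand, and the sequence is chrX:8193513-8193687 of GRCm38.p6, minus strand, 5′ to 3′, ending at the base before the start.
Ebp: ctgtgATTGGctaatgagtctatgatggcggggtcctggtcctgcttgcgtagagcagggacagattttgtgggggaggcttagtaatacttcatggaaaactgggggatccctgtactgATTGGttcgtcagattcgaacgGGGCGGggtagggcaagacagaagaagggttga

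The sensor genes were all expressed, with a median of 24.1 TPM over 5. Srebf2, the SREBP best known for cholesterol genes, had 24.3 and 23.95 TPM, and Srebf1, known for both lipid classes, had 18.7 and 15.4 TPM. Srebf2 was 1.30 and 1.56 times Srebf1 by TPM, but 0.867 and 0.989 times from the smaller count tables, so the data do not fix their order. Scap, the escort of both, had 13.2 and 8.65 TPM. Insig1, whose RNA is itself an SREBP target, had 30.6 and 24.4 TPM, and Insig2, which is not, 29.9 and 27.5 TPM. The INSIG pair overlapped by TPM, Insig2 being 0.977 times Insig1 in library 1 and 1.13 times in library 2. Per longest coding transcript Insig2 was 0.602 and 0.730 times Insig1, and from the smaller count tables it was 4.39 and 7.65 times, so the data do not fix their order either.

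Srebf1 makes different proteins from different first exons, and here the reads lay on the upstream one. Srebf1 (chromosome 11, 60199089 to 60222581, minus strand, mm10) starts its long transcript Srebf1-201 at 60220604, the first exon of the form known as SREBP-1a, a strong activator typical of dividing cells. Srebf1-201 had 559 of the gene's counts in library 1 and 544 in library 2, or 94.0% ± 1.69 of them (SD, n = 2 libraries). Srebf1-207 starts at 60210465 with the first exon of SREBP-1c, the form that leads in liver, and had 0 counts in both libraries, as did Srebf1-208, a noncoding model from nearly the same start. Only reads that touch the first exon can separate Srebf1-201 from Srebf1-207, so the depth behind this contrast is far below the gene's total. By TPM the share of Srebf1-201 was 60.2%, because Srebf1-204, a noncoding model of 367 bases, had 26.6% of TPM on 3.14% of counts.

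The coding bases of both first exons are shown because the encoded proteins differ at this start; the capitals mark the start codon, the sequences are from the mm10 transcripts of GENCODE M21 on the minus strand, and they lie at chr11:60220453-60220543 for Srebf1-201 and chr11:60210336-60210354 for Srebf1-207.
Srebf1-201: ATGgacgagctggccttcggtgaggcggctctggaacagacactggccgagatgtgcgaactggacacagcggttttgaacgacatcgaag
Srebf1-207: ATGgattgcacatttgaag
RefSeq gives Srebf1 3 starts. The 120 bases before the 2 that lie by these first exons are shown beside them, here called the upstream and the downstream start, and the farthest start, 60222581, where the noncoding Srebf1-204 begins, is not shown; capitals mark CCAAT and GGGCGG on either strand, GRCm38.p6, minus strand, chr11:60220628-60220747 for the upstream start and chr11:60210472-60210591 for the downstream start.
Srebf1 upstream start: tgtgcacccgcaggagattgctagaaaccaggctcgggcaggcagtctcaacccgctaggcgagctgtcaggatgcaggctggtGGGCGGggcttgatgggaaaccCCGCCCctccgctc
Srebf1 downstream start: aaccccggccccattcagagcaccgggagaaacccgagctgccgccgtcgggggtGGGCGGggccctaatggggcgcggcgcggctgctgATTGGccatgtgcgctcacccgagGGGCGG
The upstream window of 300 bases held 3 GGGCGG and no CCAAT, the downstream window held 2 GGGCGG and 1 CCAAT, and the window at the farthest start held 1 CCAAT and no GGGCGG.

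Transport and storage genes held both ends of the range. Npc2, the soluble lysosomal protein that hands cholesterol to the membrane protein NPC1, had 168 and 171 TPM, and Npc1 had 18.6 and 13.9 TPM. Npc2 was 9.01 and 12.3 times Npc1 by TPM and 2.39 and 3.48 times from the smaller count tables, so Npc2 was the higher on both scales. Abcg1, which exports sterol to lipoprotein particles, had 131 and 126 TPM. Abca1, which starts those particles by loading lipid on apolipoprotein, had 5.28 and 3.40 TPM and the lowest mean of the 30 by TPM, though its library values overlapped those of Tm7sf2, and Hsd17b7 was lower in library 1. Per longest coding transcript Tm7sf2 was lowest, and from the smaller count tables Idi1. Soat1, which esterifies cholesterol for storage in droplets, had 52.2 and 41.9 TPM, and Stard4, a carrier between membranes, 9.66 and 8.18 TPM. Soat1 was 9.89 and 12.3 times Abca1 by TPM, 3.02 and 3.99 times per longest coding transcript, and 9.45 and 23.4 times from the smaller count tables.

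The Npc2 gene (chromosome 12, 84754562 to 84773152, minus strand, mm10) had 5498 and 5831 counts, of which the coding transcript Npc2-201 took 50.3% ± 2.21 (SD, n = 2 libraries) and a retained-intron model, Npc2-203, 47.2% ± 2.16, a difference within their spread. Its promoter is shown as that of the highest gene; capitals mark CCAAT and GGGCGG on either strand, GRCm38.p6, minus strand, chr12:84773153-84773292, 5′ to 3′, ending before the annotated first exon.
Npc2: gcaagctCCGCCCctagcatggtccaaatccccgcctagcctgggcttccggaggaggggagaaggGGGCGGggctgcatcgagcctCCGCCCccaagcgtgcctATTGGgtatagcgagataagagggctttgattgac

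The gap between the 2 exporters was wide in the larger tables and much narrower in the smaller ones. Abcg1 (chromosome 17, 31057675 to 31117988, plus strand, mm10) had counts of 9335 and 9400 in the 2 libraries, and Abca1 (chromosome 4, 53030787 to 53159895, minus strand) had 671 and 453. By TPM Abcg1 was 24.9 and 37.0 times Abca1. The smaller tables, of whole-number counts on GENCODE M4 genes, gave Abcg1 460 and 269 counts, 4.93% and 2.86% of its count in the larger tables, and Abca1 226 and 81 counts, or 33.7% and 17.9%. On that scale Abcg1 was 3.63 and 5.91 times Abca1, and it ranked 22 of 30 in place of 2 of 30. Nearly all Abcg1 reads went to 1 coding transcript, Abcg1-201, with 99.8% of the gene's counts, and 0.177% of its 50-base windows were shared with another gene. Why the tables differ was not tested.

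Idi1 and Insig1 also had few counts in the smaller set. Idi1 had 761 and 1016 counts in the larger tables and 4 and 9 in the smaller, or 0.526% and 0.886%, and Insig1 had 994 and 837 counts against 70 and 41, or 7.04% and 4.90%. The median over 8665 expressed protein-coding genes with at least 100 counts was 39.9% in library 1, with 4.07% and 76.1% as the 5th and 95th percentiles, and the median of the 30 was 38.9%. Across those genes, which are not independent replicates, this percentage had a Spearman correlation of 0.53 with the coding share of a gene's exons in library 1 and 0.52 in library 2. At the other end Tm7sf2 kept 78.6% and Srebf1 74.7% in library 1. Ebp, Ggps1 and Npc2 were among the 5 highest of the 30 on all 3 scales (deposited TPM, per longest coding transcript, and smaller count set), and Abca1, Hsd17b7 and Stard4 among the 5 lowest on all 3.

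**Figure D3:**
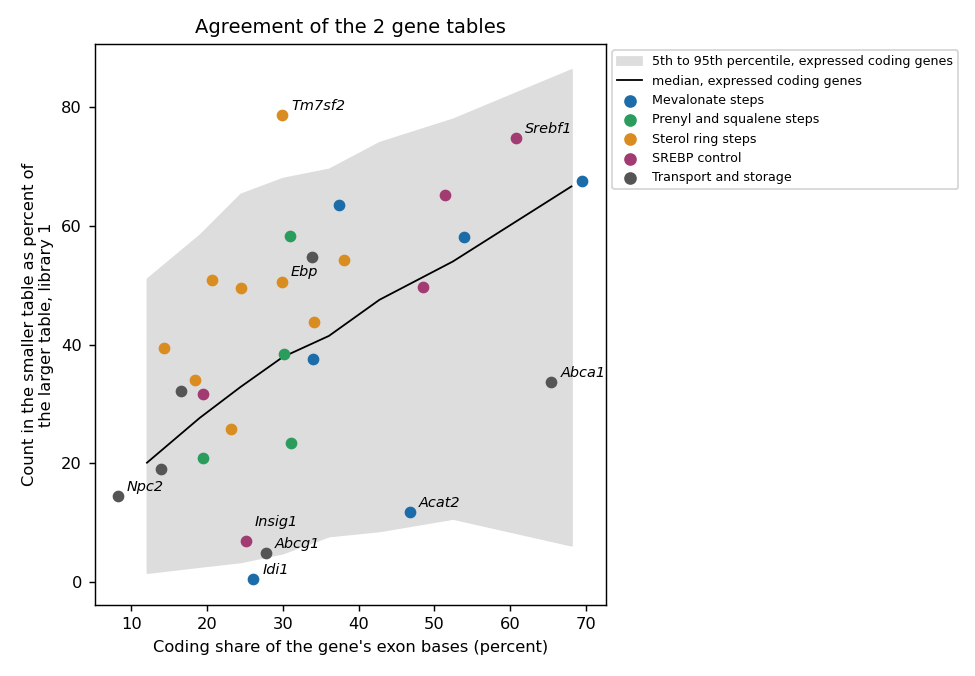
Count of each of the 30 genes in the smaller table as a percent of its count in the larger table (library 1), against the coding share of the gene's exon bases in percent; the line and grey band are the median and the 5th to 95th percentile of expressed protein-coding genes in 8 bins of coding share. Idi1 at 0.526% lies under the band, Abcg1 at 4.93% near its lower edge, and Tm7sf2 at 78.6% above it.

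Gene copies touch few of these levels. Of the 30 genes, 22 shared under 1% of their 50-base transcript windows with any other gene on the same strand, and 6 shared over 5%. Acat2 shared 39.1% of its windows, all with Acat3, a coding gene of near-identical sequence there that had 20.4 counts in library 1 and 7.29 in library 2. The deposited posterior SD of the Acat2 count was 12.8 in library 1 and 10.9 in library 2, on 1074 and 1019 counts. Fdps shared 26.2%, mainly with the overlapping model Gm43738, which had 0 counts in both libraries, and the pseudogene Gm3571, with 9.77 and 13.5 counts. Ggps1 shared 5.54%, mainly with the pseudogene Gm5630, which had 3.25 and 6.8 counts. Tm7sf2 shared 9.87% with Vps51, whose exons overlap it on the same strand over 532 bases and which had 17.4 and 20.7 TPM, well above Tm7sf2 itself. On the opposite strand, Cyp51 overlapped Akap9 over 166 exon bases and Npc1 overlapped Rmc1 over 511, both with neighbours at higher TPM, 131 and 158 for Akap9 and 89.4 and 78.6 for Rmc1.

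Most of these genes were read mainly as coding RNA. By count, 29 of the 30 had a protein-coding transcript as their largest, the exception being Ebp; by TPM it was 27, the exceptions being Lss, Srebf2 and Npc2. The leading transcript by TPM was the same in both libraries for 25 genes. Over the 78 transcripts that held 10% or more of their gene's TPM in either library, the share differed between libraries by a median of 6.44 points, and by 40.8 points at most, for Tm7sf2-201, whose gene had only 56 and 66 counts. Abca1, Abcg1, Insig1, Nsdhl, Sqle and Idi1 each had over 90% of TPM on 1 transcript. Srebf2 gave 42.0% ± 4.67 of its TPM (SD, n = 2 libraries) to Srebf2-205, a retained-intron model, and 33.5% ± 6.60 to the coding Srebf2-201. These shares were nearly equal in library 1 (38.7% and 38.1%) and apart in library 2 (45.3% and 28.8%). By count Srebf2-201 led with 55.3% ± 8.04. Scap gave 37.6% ± 7.86 of TPM to Scap-207, a retained-intron model of 425 bases with 27 and 14 counts, so its TPM rests in part on few reads.

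**Figure D4:**
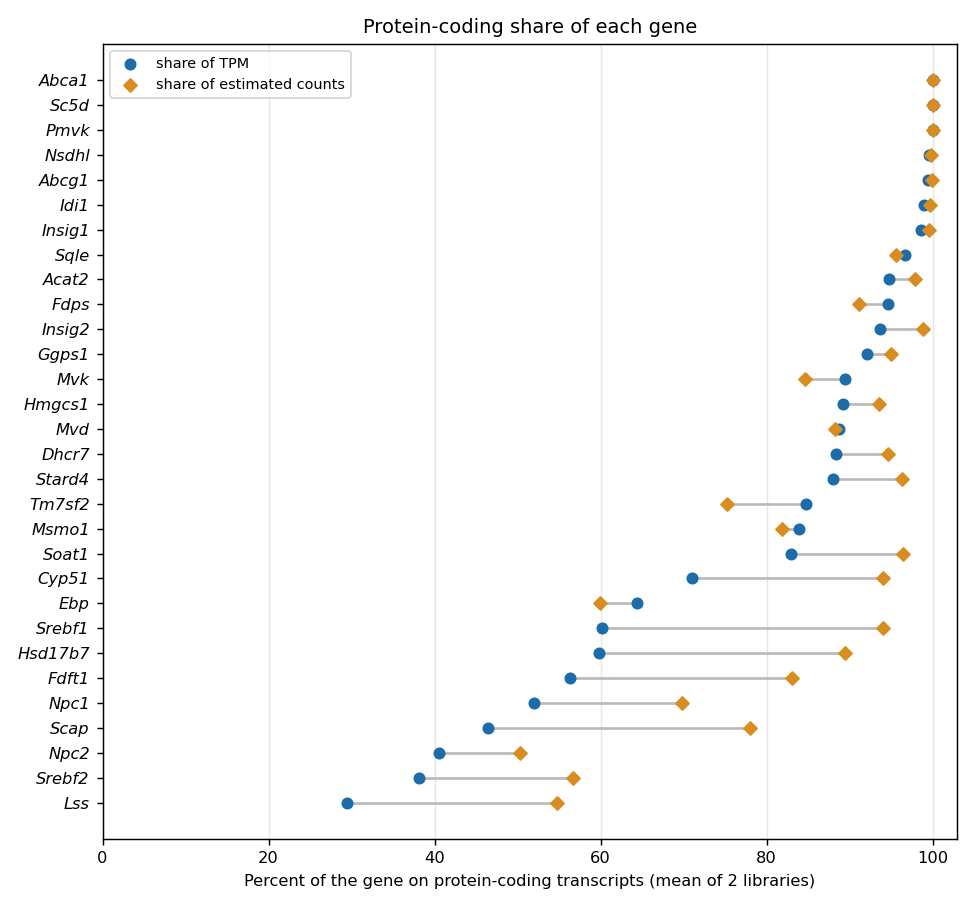
Percent of each gene's TPM (circles) and of its estimated counts (diamonds) that lay on protein-coding transcripts, as the mean of 2 libraries, ordered by the TPM share. Abca1, Sc5d and Pmvk are at 100%, and Lss, Srebf2, Npc2 and Scap have under 50% of TPM on coding transcripts.

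The 2 libraries measure how well each level is known, and 9 of the 30 genes differed between them by an exact two-sided binomial test (edgeR TMM library sizes, Benjamini-Hochberg adjustment over all genes tested), beside 25.1% of the 17458 genes tested. This test compares libraries and not conditions, and it treats reads as independent molecules. The common variation between libraries was 13.0% in edgeR, estimated from these same 2 libraries. An edgeR exact test that allows for it called 0 of the 30, beside 2% of all genes tested and 35 of the 10250 expressed protein-coding genes tested. The differences under test thus also set that variation, so a call lost in this test does not show that a difference is absent. In it 1 of the 30, Abca1, had an unadjusted p under 0.05, at 0.0344. Adding a 1.5-fold minimum to the binomial test left 1 of the 30, beside 8.82% of all genes tested and 412 of the 10250 expressed protein-coding genes tested. That gene was Abca1, with a log2 ratio of library 2 over library 1 of -0.60 and an adjusted binomial p of 4.63e-10. The smaller set called 5 of the 30 (Sqle, Srebf2, Abca1, Abcg1 and Npc1), beside 10.5% of 11114 genes, and Abca1 had a log2 ratio of -1.47 there.

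The 9 genes split by direction, 4 higher in library 2 and 5 in library 1. Among the 10250 expressed protein-coding genes tested, the binomial test called 1339 higher in library 2 and 1723 in library 1. The 4 higher in library 2 (11.8% of all genes tested were) were synthesis enzymes, though most synthesis genes were not called. They were 2 of the 6 mevalonate genes, 1 of the 4 prenyl and squalene genes and 1 of the 9 ring genes. Pmvk had 233 counts in library 1 and 329 in library 2, a log2 ratio of 0.47 (adjusted binomial p = 0.00163). Hsd17b7 had 167 and 244 counts, a log2 ratio of 0.51 (adjusted p = 0.00311 in the same test). Idi1 had a log2 ratio of 0.39 (7.56e-07), and Sqle, with 495 and 614 counts, one of 0.28 (0.00851). The 5 higher in library 1 (13.4% of all genes tested were) were 2 of the 5 sensor genes and 3 of the 6 transport and storage genes, Abca1 among them. Scap had 376 counts in library 1 and 289 in library 2, a log2 ratio of -0.41 (adjusted binomial p = 0.00234). Npc1 had 889 and 702 counts, a log2 ratio of -0.37 (7.20e-06). Insig1 had a log2 ratio of -0.28 (0.000474), and Soat1, with 1655 and 1475 counts, one of -0.20 (0.00140). Whether role and direction go together was not tested. The other 21 genes had adjusted p-values from 0.0598 to 1.00 in this test.

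Transcript length moved with the ratio across all expressed genes, split into 8 bins by longest coding transcript (total exon length for noncoding genes): the median log2 ratio was 0.07 in the shortest bin and -0.07 in the longest, where Abca1 (10262 bases), Soat1 and Abcg1 lie with a median of -0.20. The part of length in these differences was not tested. Idi1 shares 17.7% of its 50-base windows with other genes, mainly the pseudogene Gm13502, which went from 8.73 to 74.9 counts. With the pseudogene's counts added, Idi1 had 770 and 1091 counts. The part of shared reads in the Idi1 difference was not tested.

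**Figure D5:**
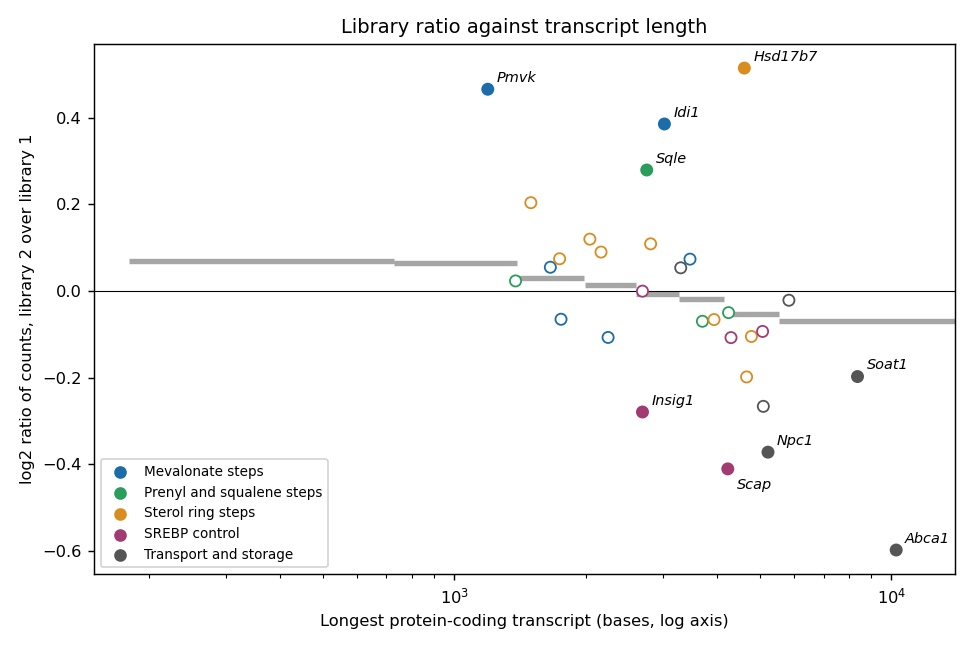
Log2 ratio of counts, library 2 over library 1, for the 30 genes against the length of the longest protein-coding transcript in bases (log axis); filled points differed in the exact binomial test, and grey bars are the median ratio of all expressed genes in 8 length bins, the longest drawn to the edge of the plot. Abca1 lies at -0.60 at the right edge, and the bin medians run from 0.07 to -0.07.

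The genes that use isoprenoids were expressed throughout. All 14 of the prenyl transferases, prenyl protein processing enzymes and ubiquinone and dolichol enzymes listed passed 1 TPM in both libraries, with a median of 17.4 TPM. Rabggta, the alpha subunit of the enzyme that prenylates Rab GTPases, was highest at 48.6 ± 5.37 TPM (SD, n = 2 libraries), followed by Fnta, the alpha subunit shared by farnesyl and type I geranylgeranyl transferase, at 36.9 ± 1.40, and Rabggtb, the Rab enzyme's beta subunit, at 36.3 ± 0.813. Icmt, which methylates the prenylated end, was lowest at 4.86 ± 1.74. In the binomial library test 3 of the 14 were higher in library 2 and 0 in library 1. Over this list and the 5 that follow, the edgeR exact test called 0 of the 50 genes tested (2% of all genes), with 3 at an unadjusted p under 0.05. The binomial test called 6 of the 50 higher in library 2 and 9 higher in library 1. Among the 10250 expressed protein-coding genes tested it called 1339 and 1723, and among all genes tested 11.8% and 13.4%. The calls in each list are to be read beside these shares, which the 50 genes together came close to.

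All 8 genes that process or degrade the sensors were also expressed, with a median of 14.9 TPM. Mbtps1, the first Golgi protease that cuts SREBP, had 35.2 ± 1.59 TPM, and Ube2g2, a ubiquitin-conjugating enzyme of the endoplasmic reticulum, 26.7 ± 6.41. Erlin1, a membrane scaffold of sterol-driven protein degradation, was lowest at 4.41 ± 0.714. In the library test 1 of the 8 was higher in library 2 and 2 in library 1. Syvn1, a ubiquitin ligase of the endoplasmic reticulum, was higher in library 1 with a log2 ratio of -0.68 (adjusted binomial p = 1.64e-09), a call lost in the edgeR exact test (adjusted p = 0.307).

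Fatty acid genes known as SREBP targets were less even. Of 11, 8 were expressed, and the median was 9.25 TPM. Elovl5, an elongase of polyunsaturated fatty acids, had 134 ± 7.74 TPM, Acly, which makes cytosolic acetyl-CoA from citrate and so feeds both lipid classes, 76.2 ± 0.841, and Scd2, a desaturase, 31.8 ± 2.64. Its relative Scd1, the main desaturase of liver, had 6 counts in library 1 and 1 in library 2, Fads2 had 0 and 3, and Me1, malic enzyme, had 0 and 1 and was lowest. In the library test, 1 of the 8 tested was higher in library 2 and 3 in library 1, among them Acaca, acetyl-CoA carboxylase, with a log2 ratio of -0.65 (adjusted binomial p = 2.24e-07), a call lost in the edgeR exact test (adjusted p = 0.387).

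The LXR receptors differed in level. Nr1h2, the widely expressed LXR beta, had 31.02 ± 0.474 TPM and was the highest of the 6 genes of this list, whose median was 11.7 TPM, followed by Lpcat3, a phospholipid enzyme and LXR target, at 25.3 ± 0.615, and Mylip, the LXR-induced ubiquitin ligase of lipoprotein receptors, at 14.5 ± 0.417. Nr1h3, which encodes LXR alpha and is typical of macrophages and liver, was the lowest at 2.02 TPM in library 1 and 1.07 in library 2, on 38 and 13 counts. Its log2 ratio was -1.54 (adjusted binomial p = 0.00308), a call lost in the edgeR exact test (adjusted p = 0.118). In the library test 0 of the 6 were higher in library 2 and 2 in library 1.

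Macrophages express Abca1 and Nr1h3 strongly, so their markers were read beside both. Of 10 macrophage markers 2 were expressed, Cd68 and Vcam1, and the 10 summed to 9.94 TPM in library 1 and 8.31 in library 2. Marco had 0 counts in both libraries and Lyz2, a defining and abundant macrophage gene, 0 and 4. Of the 6 markers with enough counts to test, all but Adgre1 (5 and 12 counts) had the lower count in library 2. Both are technical libraries of 1 RNA sample, so these counts do not compare different cell mixtures. The median log2 ratio of the 6 was -0.50. Among the markers too low to test, Mertk (0 and 6 counts) and Lyz2 had counts in library 2 only, and Cd14 had 2 in each library. The 2 of the 6 that differed in the binomial test were Csf1r, with 44 and 12 counts, and Vcam1, with 193 and 145. Cd68 had 46 and 32, Mrc1 18 and 7, and Itgam, nearly equal, 21 and 20. The part of such cells in the Abca1 and Nr1h3 levels was not tested. Of 5 B cell markers 1 was expressed, Cd79b, and Ms4a1 had 30 and 3 counts. Of 5 dendritic cell markers 1 was expressed, Zbtb46, and Itgax had 0 counts in both libraries. None of 5 granulocyte and 5 stromal markers was expressed.

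Carriers of sterol between membranes and lysosomes were expressed in full, 12 of 12, with a median of 33.2 TPM. Lipa, the lysosomal lipase that frees cholesterol from its esters upstream of NPC2, was highest at 78.0 ± 5.12 TPM, followed by Osbpl9, an oxysterol-binding protein relative, at 74.5 ± 0.438, and Gramd1a, which moves plasma membrane cholesterol to the endoplasmic reticulum, at 65.3 ± 4.30. Vapb, a tether of such contacts, was lowest at 1.25 ± 0.134. In the library test 1 of the 12 was higher in library 2 and 2 in library 1. Oxysterol enzymes stood apart from this: 2 of 6 were expressed, Sult2b1, which sulfates sterols, at 4.11 ± 0.368 TPM, and Hsd3b7, an oxysterol dehydrogenase, at 3.61 ± 0.955. Ch25h and Cyp7b1, which make and break 25-hydroxycholesterol, had 0 counts in both libraries, Cyp27a1 had 0 and 1, and Cyp46a1 1 and 0, so these 4 were not detectable above the limit of 3 counts. Neither of the oxysterol genes tested differed between libraries in the binomial test.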

How the data were processed

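Polyadenylated RNA of 1 sample was sequenced as 2 technical libraries, grouped by the labels. Per the file headers and the deposited readme, the authors estimated the count (expected count) and TPM of each gene and transcript on mm10 with GENCODE M21, and deposited the percent of each gene's TPM per transcript. A smaller table deposited by the authors holds whole-number counts on GENCODE M4 genes. No source used here names the aligner, the counting tool or the strand setting. Each expected count was rounded; rows that matched no M21 gene were left out (55536 of 81881 rows matched, and 22195 of 22457 rows of the smaller tables).

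Libraries were compared with an exact binomial test (scipy 1.17.1) where both libraries summed to 10 counts or more, with TMM sizes from edgeR 4.0.16. An adjusted p of 0.05 or less was a call, and log2 ratios had a prior count of 0.5. The test was also run on simulated data drawn with counting error only. Those data lack the common variation between libraries, so they cannot show how sound the calls are here. With 1 library a side a quasi-likelihood fit has no residual degrees of freedom. Smaller counts were put on the TPM scale with the M21 effective length, and shared windows are stretches of 50 bases found in a transcript of another gene on the same strand. Sequences come from RefSeq (GRCm38.p6) and GENCODE M21; protein sequences were not used here. All 30 genes are named, and of each other list the 3 highest, the lowest and any gene called at 1.5-fold. Of the genes this rule names, 1 is not reported here. The genes and lists were chosen with earlier results of these data known. Alternatives were DESeq2 1.42.0 size factors, total counts, other count and TPM minimums, posterior mean TPM, rescaled TPM, the smaller tables, 1 library alone and, chosen after seeing the data, the longest coding transcript's length and genes with under 5% shared windows.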

Additional observations from a re-analysis of the deposited data

How the results depend on the processing

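The number of the 30 genes that differed between libraries was 9. It stayed within 1.5 times under total counts, DESeq2 size factors (10), no minimum count, a summed count of 50 or more and, chosen after seeing the data, genes with under 5% shared windows (8). It was 5 in the smaller tables, 0 with the edgeR exact test and 1 with a 1.5-fold minimum. The median level of the 30 was 26.1 TPM and ran from 25.3 to 26.7 with either library alone. It was 24.2 with posterior mean TPM, 50.1 from the smaller tables and, chosen after seeing the data, 31.95 per length of the longest coding transcript; the cause was not tested. With either library alone, 30 of the 30 were expressed and 27 were led by a protein-coding transcript. No direction of a called library difference reversed under these alternatives. Only the smaller tables held other counts, so the other settings could hardly have reversed one. No paired analysis was possible because both libraries belong to the same group. The design also named an identity between proteins, which was not run. Genes of 1 to 3 counts are known only to within the limit that a count of 0 allows, and with 1 animal nothing here measures the spread between animals.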
